A study of Homo sapiens with 12 samples.

Results

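This report is about 8 human genes of late mitochondrial iron-sulfur (Fe-S) cluster targeting and lipoate synthesis, LIAS, LIPT1, LIPT2, NFU1, BOLA3, IBA57, NUBPL and GLRX2, chosen by their gene symbols among 58735 genes in the count table. All 8 were found by their Ensembl identifiers, and all 8 passed the filter on low counts that left 16891 genes to be tested. The cells were of ES2, an established line from a human ovarian carcinoma. Their endogenous FDX2 gene had been knocked out by CRISPR-Cas9, and they carried instead an editing-resistant, HA-tagged FDX2 cDNA under a doxycycline (Doxy) inducible promoter. Every condition carried this knockout and this transgene. With Doxy the cells made FDX2, and without Doxy they lost it. The 4 conditions, of 3 libraries each, were 20% O2 with Doxy, 20% O2 without Doxy, 3% O2 with Doxy and 3% O2 without Doxy. Cells at 20% O2 were cultured for 6 days, whereas cells at 3% O2 had 4 days at 20% O2 and then 3 days at 3% O2, so oxygen and days in culture cannot be told apart in any comparison across oxygen. The study established 2 FDX2-iKO clones of this line, and its results were shown with 1 of them unless stated, so the libraries speak for a clone rather than for ovarian cancer cells in general.

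Fe-S clusters are built in mitochondria on the scaffold protein ISCU, with the cysteine desulfurase NFS1 as the source of sulfur and the ferredoxin FDX2 as a source of electrons. A first cluster is handed through the glutaredoxin GLRX5 to late-acting factors that make the larger cubane clusters and carry them to their client proteins. IBA57 works with ISCA1 and ISCA2 at that step. NFU1 and BOLA3 pass clusters to a few clients, among them lipoic acid synthase, LIAS, and NUBPL serves the assembly of respiratory complex I. LIAS is itself an Fe-S enzyme, which uses a cluster as the sulfur donor when it turns a protein-bound octanoyl chain into lipoate. LIPT2 first moves the octanoyl chain from the mitochondrial acyl carrier protein to the glycine cleavage H protein, and LIPT1 moves finished lipoate from there to the pyruvate, 2-oxoglutarate and branched-chain dehydrogenase complexes. GLRX2 is a glutaredoxin with a mitochondrial form, which reduces protein disulfides with glutathione and can itself hold an Fe-S cluster between paired subunits. Inherited defects of NFU1, BOLA3, IBA57 and LIAS are known as multiple mitochondrial dysfunctions or lipoate deficiency syndromes.

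Libraries held between 24958386 and 34313637 counts assigned to genes. FDX2 itself had 5, 2 and 6 counts at 20% O2 with Doxy and 9, 13 and 4 without, and 2, 4 and 12 counts at 3% O2 with Doxy and 7, 7 and 5 without. The groups overlapped at both O2 levels, and the few counts at 20% O2 did not follow the labels, while 70.9% of the exonic bases of FDX2 are shared with other annotated genes on the same strand. At this depth the counts could not check the loss of FDX2, and the part of the shared bases was not tested. Other transcripts moved with the labels: CA9, a carbonic anhydrase induced by hypoxia, was higher by 9.46 log2 at 3% O2 with Doxy, and MKI67, a proliferation marker, fell by 1.37 log2 on FDX2 loss at 20% O2. Of the epithelial and ovarian carcinoma markers, KRT8, KRT18, KRT7 and PAX8 were well counted, whereas EPCAM and WT1 were near 0, with at most 8 counts in a library. The 7 markers of blood, endothelial and liver cells had at most 6 counts in any library. Replicate 1 of 3% O2 without Doxy stood apart, with the lowest depth, the most genes detected (25167, against 22895 to 24865 elsewhere) and the highest share of long noncoding RNA (2.21%, against 1.12% to 1.68%). For the 8 genes, each result whose call or sign turned on this library is given with and without it. Other genes and the correlations between genes are given only with it. The libraries also differed in how counts depended on the GC content of a gene: the slope of log2 counts ran from -0.15 per 10 points of GC, in 20% O2 without Doxy replicate 3, to 0.19, in 3% O2 with Doxy replicate 3.

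Per length of annotated exons, NFU1 had the highest level of the 8 genes, 15.9 ± 0.845 CPM per kb (CPM are counts scaled to a common library total of 1e6) at 20% O2 without Doxy (SD, n = 3). GLRX2 came next in the same cells, with 9.45 ± 0.290 CPM per kb, then BOLA3 with 7.37 ± 0.219 and LIAS with 5.70 ± 0.141. The remaining genes were lower, with 2.32 ± 0.109 CPM per kb for LIPT1, 2.15 ± 0.0964 for NUBPL, 1.095 ± 0.0217 for IBA57 and 0.972 ± 0.0763 for LIPT2. LIPT1 and NUBPL, neighbours in this order, overlapped in their per-length levels within their spread. The lengths weigh on this order, because protein-coding transcripts cover only 20.9% of the annotated exonic bases of GLRX2, 20.3% of BOLA3 and 46.7% of LIAS, but all of LIPT2. LIPT2 was also the most thinly counted, with 33 to 71 counts per library, against 1060 to 1865 for GLRX2 and 1210 to 2116 for LIAS.

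**Figure D1:**
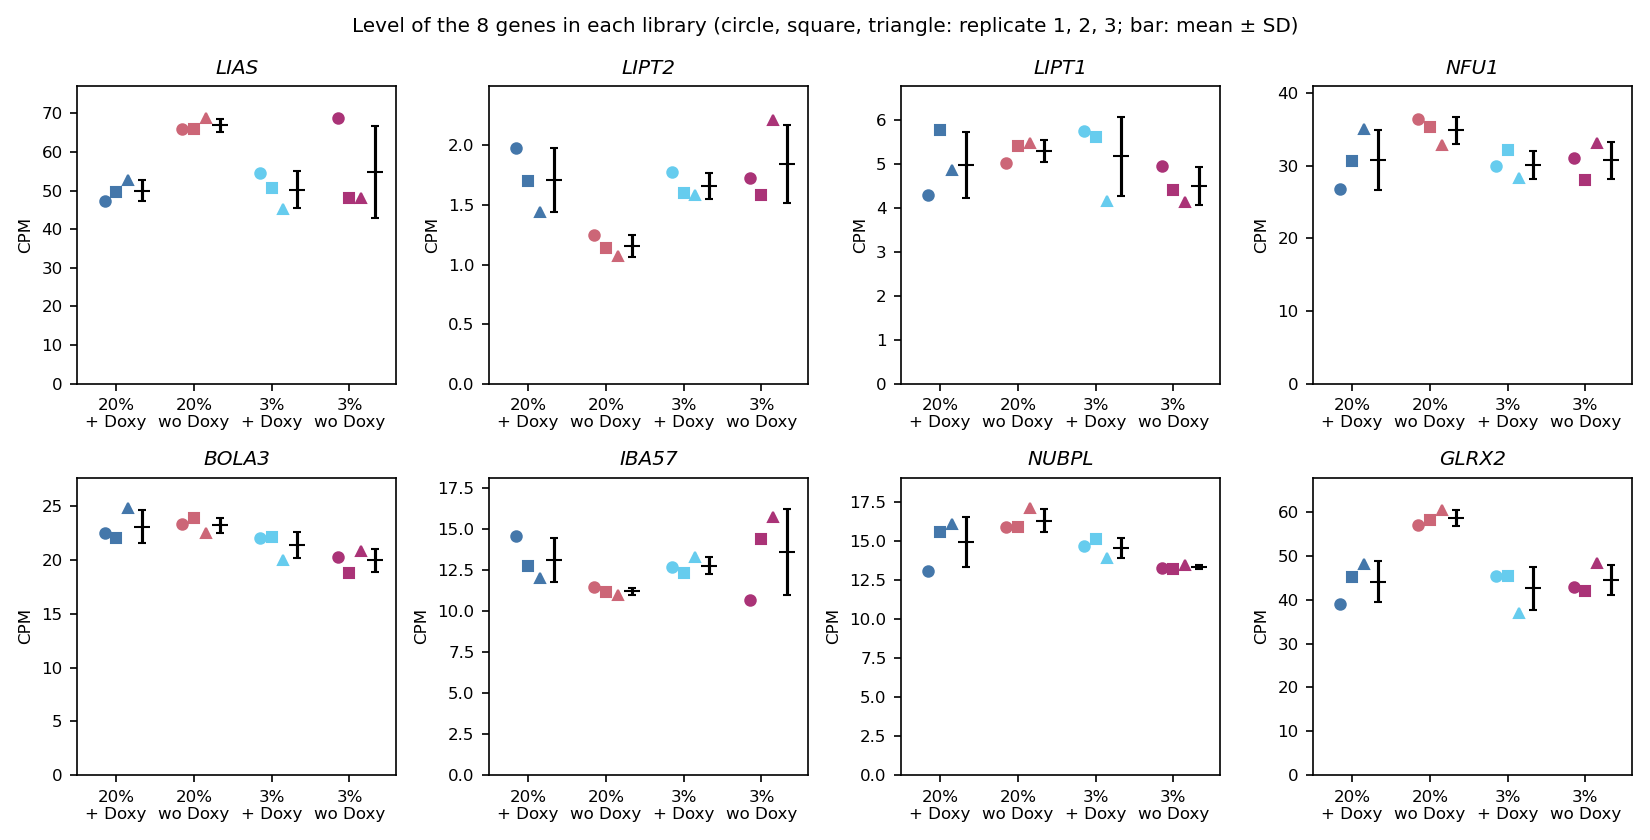
Level of each of the 8 genes in CPM (vertical axis, starting at 0) in each of the 12 libraries, by condition. Symbols are replicates, and bars are the mean ± SD of 3 libraries. LIAS and GLRX2 are highest at 20% O2 without Doxy, where LIPT2 is lowest, and LIAS in 3% O2 without Doxy replicate 1 (68.7 CPM) lies far above the other two libraries of its condition.

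The 250 bases before the RefSeq start site (GRCh38.p14) are shown for LIAS, GLRX2 and LIPT2, the genes called on FDX2 loss at 20% O2, and for NUBPL, the 1 gene of the 8 with a complete cyclic AMP response element. Capitals mark matches to 5 short motifs searched on both strands: the cyclic AMP response element TGACGTCA, the amino acid response core TGATGNAA bound by ATF4 with C/EBP factors, the hypoxia response core ACGTG, the ETS core CCGGAAGT and the NRF1 core TGCGCA.
LIAS, chr4:39458806-39459055, plus strand: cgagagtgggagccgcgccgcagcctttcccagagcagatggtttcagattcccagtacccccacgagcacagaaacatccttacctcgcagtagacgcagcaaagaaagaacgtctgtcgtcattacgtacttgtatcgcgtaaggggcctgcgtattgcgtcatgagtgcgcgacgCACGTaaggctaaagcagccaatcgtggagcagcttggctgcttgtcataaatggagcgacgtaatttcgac
GLRX2, the third of 3 windows listed, chr1:193105415-193105664, minus strand: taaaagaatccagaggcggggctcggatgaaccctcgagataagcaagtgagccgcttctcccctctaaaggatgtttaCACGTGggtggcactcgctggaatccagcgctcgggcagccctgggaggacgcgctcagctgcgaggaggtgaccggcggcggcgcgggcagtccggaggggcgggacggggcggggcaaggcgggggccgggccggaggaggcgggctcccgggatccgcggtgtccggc
LIPT2, chr11:74493725-74493974, minus strand: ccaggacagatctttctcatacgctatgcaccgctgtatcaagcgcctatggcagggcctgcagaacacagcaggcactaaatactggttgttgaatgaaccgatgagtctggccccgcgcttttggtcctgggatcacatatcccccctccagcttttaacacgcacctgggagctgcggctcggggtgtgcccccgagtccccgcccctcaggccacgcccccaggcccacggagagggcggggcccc
NUBPL, chr14:31561154-31561403, plus strand: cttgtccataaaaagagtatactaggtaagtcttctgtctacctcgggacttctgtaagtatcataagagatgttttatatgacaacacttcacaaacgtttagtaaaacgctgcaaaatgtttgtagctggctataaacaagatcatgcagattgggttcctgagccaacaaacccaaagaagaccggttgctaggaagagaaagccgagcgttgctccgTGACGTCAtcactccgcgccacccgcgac
NUBPL held a complete cyclic AMP response element that began 29 bases before the start, a motif found in 1.65% of 35116 promoter windows of this length. LIAS held 1 hypoxia response core, as did the first of the windows of IBA57, and GLRX2 held it on both strands in 1 palindrome of the window shown, where the matches overlap. The remaining windows of GLRX2, IBA57 and NFU1 held none of the 5 motifs. This core is common and stood in 18.5% of all windows. The NRF1 core (6.89% of all windows) stood in the first window of NFU1. Neither the ETS core (3.42%) nor the amino acid response core (3.14%) was found in any window of the 8 genes, and LIPT2, LIPT1 and BOLA3 held none of the 5 motifs. A match is a run of letters and was not tested as a binding site.

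The first comparison asked how the 8 genes responded when FDX2 was lost at 20% O2. LIAS and GLRX2 rose by about the same factor, 1.34-fold and 1.33-fold, whereas LIPT2 fell to 0.677 of its level with Doxy. The other 5 genes did not pass the test (edgeR quasi-likelihood test, Benjamini-Hochberg adjusted p under 0.05). Thus 3 of 8 genes were called, beside 35.3% of all genes tested, with 2 higher (17.6% of all genes) and 1 lower (17.7%). The median change of the 8 genes was 0.11 log2, against 0.009 for all genes, and the median absolute change was 0.20 against 0.28. These are bulk samples, in which a change per cell and a change in the share of cells that hold a transcript cannot be told apart, and MKI67 fell in the same comparison, a part that was not tested.

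LIAS, the lipoate synthase, lay on chromosome 4 (39458587 to 39485109, GRCh38, GENCODE 29). At 20% O2 with Doxy its level was 47.4, 49.7 and 52.8 CPM, and without Doxy it was 65.8, 66.01 and 68.8 CPM. All libraries without Doxy were above all with Doxy. The difference was 0.42 log2 (SE 0.126, 95% interval 0.14 to 0.70, adjusted p = 0.0232). The call was lost when any of 5 of the 6 compared libraries was left out (all but 20% O2 with Doxy replicate 3), with estimates of 0.35 to 0.42 log2 and adjusted p of 0.0628 to 0.0975.

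GLRX2, the glutaredoxin, gave 39.1, 45.3 and 48.2 CPM at 20% O2 with Doxy and 57.1, 58.3 and 60.6 CPM without Doxy. The groups did not overlap, and the libraries with Doxy were the more widely spread. Its difference, 0.41 log2 (SE 0.0977, 95% interval 0.19 to 0.62), had the smallest adjusted p of the 8 genes, 0.00761. Left without 20% O2 without Doxy replicate 3 it missed the threshold narrowly (0.36 log2, adjusted p = 0.0537).

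LIPT2, the octanoyl transferase, moved the other way. Its 2.0, 1.7 and 1.4 CPM at 20% O2 with Doxy stood above 1.3, 1.1 and 1.1 CPM without Doxy. This is a difference of -0.56 log2 (SE 0.186, 95% interval -0.97 to -0.16, adjusted p = 0.0350), on counts of 47 to 62 and of 33 to 39. The call was lost without each of 5 of the 6 compared libraries (all but 20% O2 with Doxy replicate 3), at adjusted p of 0.0506 to 0.0966, and in the DESeq2 Wald test at 0.0662.

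None of the cluster carriers passed the test on FDX2 loss at 20% O2. NFU1 gave 26.7, 30.7 and 35.0 CPM with Doxy and 36.5, 35.3 and 32.8 CPM without, a difference of 0.18 log2 (adjusted p = 0.188). Without 20% O2 with Doxy replicate 3, its highest library with Doxy, NFU1 was called (0.28 log2, adjusted p = 0.0423), and without 20% O2 with Doxy replicate 1 the difference was 0.05 log2. BOLA3, its partner, differed by 0.01 log2, with a 95% interval of -0.14 to 0.16. IBA57 was at 14.6, 12.7 and 12.02 CPM with Doxy and at 11.4, 11.2 and 10.99 CPM without, groups that did not overlap, but its -0.23 log2 did not pass the test (adjusted p = 0.182). NUBPL, the complex I assembly factor, differed by 0.13 log2 (adjusted p = 0.244) and LIPT1, the lipoyl transferase, by 0.09 log2 (adjusted p = 0.667). In all, 4 of the 8 genes had groups that did not overlap, beside 52.3% of all genes.

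**Figure D2:**
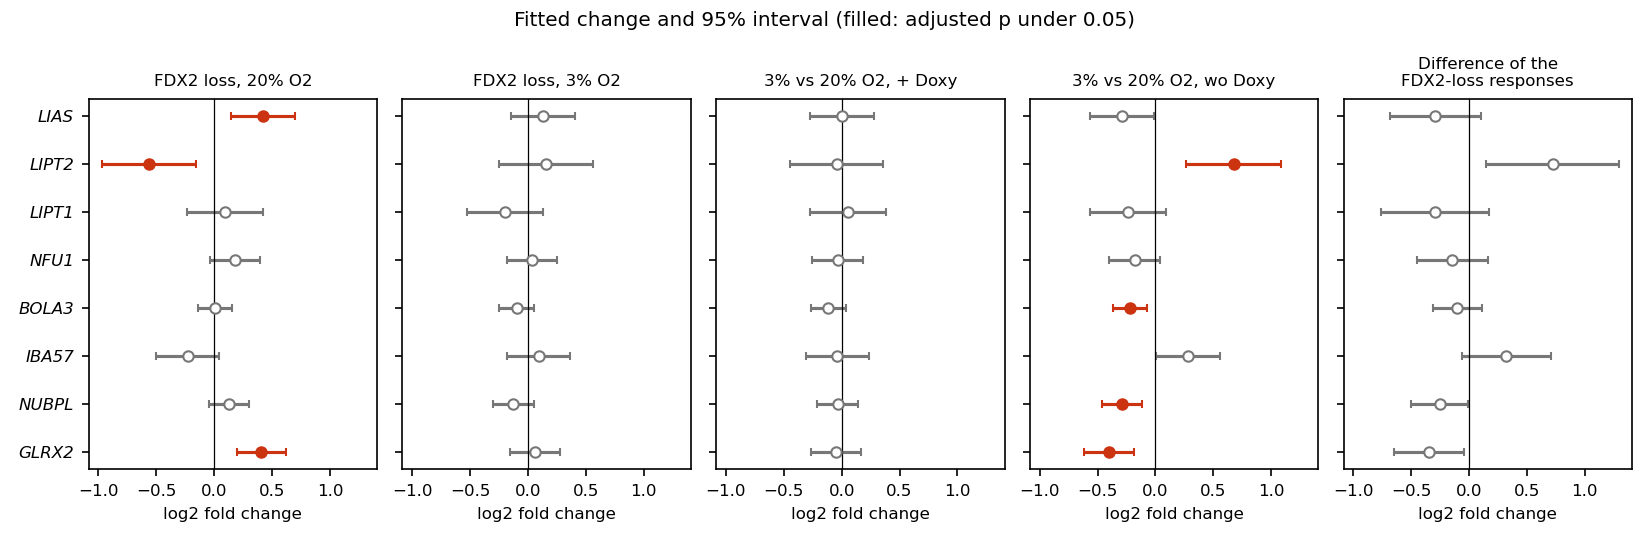
Fitted log2 fold change (horizontal axis) with its 95% interval for each of the 8 genes in the 5 comparisons. Filled points have an adjusted p under 0.05: 3 genes on FDX2 loss at 20% O2, 4 genes at 3% against 20% O2 without Doxy, and none in the other comparisons.

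At 3% O2, FDX2 loss was not accompanied by a called change in any of the 8 genes (edgeR), beside 7.31% of all genes, and none had an unadjusted p under 0.05 (23.1% of all genes). The adjusted p lay between 0.369 and 0.874. The DESeq2 Wald test also called 0 of the 8 genes. LIAS was at 54.6, 50.7 and 45.1 CPM with Doxy and at 68.7, 48.0 and 47.9 CPM without. Only replicate 1, the library that stood apart, was above the libraries with Doxy, and the LIAS difference of 0.13 log2 turned to -0.06 without it. GLRX2 gave 45.4, 45.5 and 37.0 CPM with Doxy and 43.0, 42.1 and 48.5 CPM without, 0.06 log2 with a 95% interval of -0.15 to 0.28. For LIPT2 the 1.8, 1.6 and 1.6 CPM with Doxy and 1.7, 1.6 and 2.2 CPM without gave 0.16 log2 (-0.25 to 0.56). LIPT1 had the largest difference, -0.20 log2 (-0.53 to 0.13, adjusted p = 0.454), with 5.7, 5.6 and 4.1 CPM with Doxy and 5.0, 4.4 and 4.1 CPM without. BOLA3 differed by -0.10 log2, IBA57 by 0.09 log2 and NFU1 by 0.03 log2. NUBPL was the 1 gene of the 8 whose groups did not overlap (24.6% of all genes), with 14.7, 15.1 and 13.9 CPM against 13.3, 13.3 and 13.5 CPM, but its -0.13 log2 did not pass the test (adjusted p = 0.369).

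In cells that kept FDX2, 3% O2 also gave no called change (edgeR), beside 2.02% of all genes, and 0 of the 8 genes had an unadjusted p under 0.05 (13% of all genes) or were called by the DESeq2 Wald test. Differences from 20% O2 ran from -0.11 log2 for BOLA3 (95% interval -0.26 to 0.03) to 0.06 log2 for LIPT1 (-0.27 to 0.38), and the adjusted p were all at or above 0.548. The groups of all 8 genes overlapped (15.4% of all genes did not overlap). LIAS, with 49.9 ± 2.70 CPM at 20% O2 and 50.2 ± 4.79 CPM at 3% O2, differed by 0.01 log2, with an interval of -0.27 to 0.28. NFU1, IBA57 and NUBPL each differed by -0.04 log2 and GLRX2 by -0.05 log2. LIPT2, at -0.04 log2, had the widest interval, from -0.45 to 0.36 log2. The median change of the 8 genes was -0.04 log2.

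Without Doxy, 3% O2 was compared with 20% O2 to ask how low oxygen met cells that had lost FDX2. Here GLRX2, NUBPL and BOLA3 fell and LIPT2 rose, 4 of 8 genes beside 25.8% of all genes, with 3 lower (11.9% of all genes) and 1 higher (13.9%). The median change of the 8 genes was -0.23 log2, against 0.07 for all genes. Groups did not overlap for 5 of the 8, beside 49.4% of all genes. This comparison shares its 20% O2 libraries without Doxy with the comparison of FDX2 loss at 20% O2, so the values for the same genes stand side by side here and are not independent.

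GLRX2 went from 57.1, 58.3 and 60.6 CPM at 20% O2 to 43.0, 42.1 and 48.5 CPM at 3% O2. No library at 3% O2 reached the lowest at 20% O2. The difference was -0.40 log2 (SE 0.0979, 95% interval -0.61 to -0.18, edgeR adjusted p = 0.0137), beside 0.41 log2 on FDX2 loss at 20% O2. It missed the threshold without 20% O2 without Doxy replicate 3 (-0.38 log2, adjusted p = 0.0648) and without 3% O2 without Doxy replicate 2 (-0.36 log2, adjusted p = 0.0557).

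LIPT2 rose from 1.3, 1.1 and 1.1 CPM to 1.7, 1.6 and 2.2 CPM. This was the largest change of the 8 genes between any conditions compared, 0.68 log2 (SE 0.186, 95% interval 0.27 to 1.09, adjusted p = 0.0216). Same-numbered libraries of these conditions deviated together, though the labels do not say that they were paired. With the replicate number as a block in the 6 libraries LIPT2 was no longer called (0.65 log2, adjusted p = 0.0855). The call was also lost without 20% O2 without Doxy replicate 2 (adjusted p = 0.0655) or replicate 3 (0.0821) and without 3% O2 without Doxy replicate 3 (0.0821).

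NUBPL gave 15.9, 15.9 and 17.2 CPM at 20% O2 and 13.3, 13.3 and 13.5 CPM at 3% O2, the narrowest spread relative to its mean of any gene of the 8 in any condition (1.03%). It fell by 0.29 log2 (SE 0.0797, adjusted p = 0.0222). BOLA3, at 23.3, 23.9 and 22.5 CPM and then 20.3, 18.8 and 20.8 CPM, fell by 0.22 log2 (SE 0.0682, adjusted p = 0.0368). Both changes are small, and both lost the call when single libraries were left out, BOLA3 with any of the 6 (adjusted p 0.0502 to 0.134) and NUBPL with any but 3% O2 without Doxy replicate 1 (0.0519 to 0.110). Without 3% O2 without Doxy replicate 1, BOLA3 was at -0.23 log2 (edgeR adjusted p = 0.0627). BOLA3 kept its call with the replicate block in the 6 libraries (adjusted p = 0.0480) and lost it with the block over all 12 (0.0761).

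LIAS and IBA57 did not pass the test between 3% and 20% O2 without Doxy, and for both this rested on 1 library. LIAS was at 65.8, 66.01 and 68.8 CPM at 20% O2 and at 68.7, 48.0 and 47.9 CPM at 3% O2, -0.29 log2 (adjusted p = 0.117). Without 3% O2 without Doxy replicate 1 it was -0.48 log2 (SE 0.0823, adjusted p = 0.00281). IBA57, the late assembly factor, was at 11.4, 11.2 and 10.99 CPM at 20% O2 and at 10.7, 14.4 and 15.7 CPM at 3% O2, 0.28 log2 (adjusted p = 0.118), and without the same library it was 0.43 log2 (adjusted p = 0.00834). NFU1 (-0.18 log2, adjusted p = 0.200) and LIPT1 (-0.24 log2, adjusted p = 0.260) did not pass. LIPT1 gave 5.0, 5.4 and 5.5 CPM against 5.0, 4.4 and 4.1 CPM.

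Whether the response to FDX2 loss differed between 3% and 20% O2 was tested as an interaction. None of the 8 genes was called (edgeR), beside 7.29% of all genes, and the DESeq2 Wald test called 0, although 3 of 8 had an unadjusted p under 0.05, beside 23.4% of all genes. These were LIPT2, with a difference of 0.72 log2 between the responses (95% interval 0.15 to 1.29, adjusted p = 0.124), GLRX2, with -0.35 log2 (-0.65 to -0.04, adjusted p = 0.161), and NUBPL, with -0.25 log2 (-0.50 to -0.01, adjusted p = 0.201). Of the rest, IBA57 gave 0.32 log2, LIAS and LIPT1 -0.29 log2 each, NFU1 -0.14 log2 and BOLA3 -0.10 log2. So the presence of a call at 20% O2 and its absence at 3% O2 do not show, for LIAS, GLRX2 or LIPT2, that the responses differed. Leaving out 3% O2 without Doxy replicate 1 gave calls for LIAS (-0.48 log2, adjusted p = 0.0274) and IBA57 (0.47 log2, adjusted p = 0.0475), beside 1139 of 16891 genes. GLRX2 was called (-0.44 log2, adjusted p = 0.0387) without 3% O2 with Doxy replicate 3, beside 2246 of 16891 genes. With all libraries 1231 of 16891 genes were called.

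The changes of the 8 genes moved closely with their GC content in the comparisons that use 20% O2 without Doxy. The GC content, taken from the longest annotated transcript of each gene, ran from 35.7% for GLRX2, 37.9% for NUBPL, 40.4% for LIAS, 41.0% for LIPT1 and 42.3% for NFU1 to 52.9% for BOLA3, 54.0% for IBA57 and 60.7% for LIPT2. Across these 8 genes the log2 change and the GC content had r = -0.90 on FDX2 loss at 20% O2 and r = 0.88 at 3% against 20% O2 without Doxy, as a description of 8 genes that share their libraries. These comparisons share the libraries at 20% O2 without Doxy, so the values of r are not independent. In the interaction, which also uses them, r was 0.91. It was 0.36 on FDX2 loss at 3% O2 and -0.39 at 3% against 20% O2 with Doxy. The GC slopes of the libraries lay at -0.099, -0.086 and -0.15 log2 per 10 points in 20% O2 without Doxy, below the 0.025, 0.18 and 0.056 of 3% O2 without Doxy. At 20% O2 with Doxy they were spread, at 0.17, -0.056 and -0.13. The part of the GC trend in these changes was not tested, but all comparisons were repeated with a smooth GC trend removed from each library, an alternative chosen after the data were seen. With the trend removed, r was -0.85 on FDX2 loss at 20% O2, 0.68 at 3% against 20% O2 without Doxy and 0.84 in the interaction. It was 0.0046 on FDX2 loss at 3% O2 and -0.71 at 3% against 20% O2 with Doxy.

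After the GC correction the SE of the GLRX2 change on FDX2 loss at 20% O2 fell from 0.0977 to 0.0372, the smallest of the 8 genes. GLRX2 gave 42.1, 42.9 and 43.2 corrected CPM at 20% O2 with Doxy, 54.2, 56.2 and 54.7 at 20% O2 without Doxy, 44.0, 44.3 and 43.2 at 3% O2 with Doxy, and 45.2, 46.8 and 49.7 at 3% O2 without Doxy. The condition at 20% O2 without Doxy was thus above all the others. On FDX2 loss at 20% O2 GLRX2 rose by 0.36 log2 (adjusted p = 9.96e-06), at 3% against 20% O2 without Doxy it fell by 0.22 log2 (adjusted p = 0.000941), and the interaction, not called before the correction, was then called at -0.26 log2 (SE 0.0530, adjusted p = 0.00667). On FDX2 loss at 3% O2 it was higher by 0.11 log2 and did not pass the test (adjusted p = 0.0660). It was the 1 gene of the 8 called in the interaction, beside 18.3% of all genes after the same correction.

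LIAS also kept its rise on FDX2 loss at 20% O2 after the correction, with 49.6, 47.5 and 48.9 corrected CPM with Doxy and 64.2, 65 and 65.4 without (0.41 log2, adjusted p = 0.00745). LIPT2 kept its direction but lost both calls, with -0.34 log2 (adjusted p = 0.208) on FDX2 loss at 20% O2 and 0.39 log2 (adjusted p = 0.175) at 3% against 20% O2 without Doxy. NUBPL went from -0.29 to -0.14 log2 (adjusted p = 0.0433) in the latter comparison and was not called once the replicate block was added (adjusted p = 0.0517 over 12 libraries and 0.145 over 6). BOLA3, of higher GC content, went from -0.22 to -0.33 log2 (adjusted p = 0.0266). In numbers, 2 of the 8 genes were called on FDX2 loss at 20% O2 after the correction, beside 46.4% of all genes, and 3 at 3% against 20% O2 without Doxy, beside 33.1%.

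**Figure D3:**
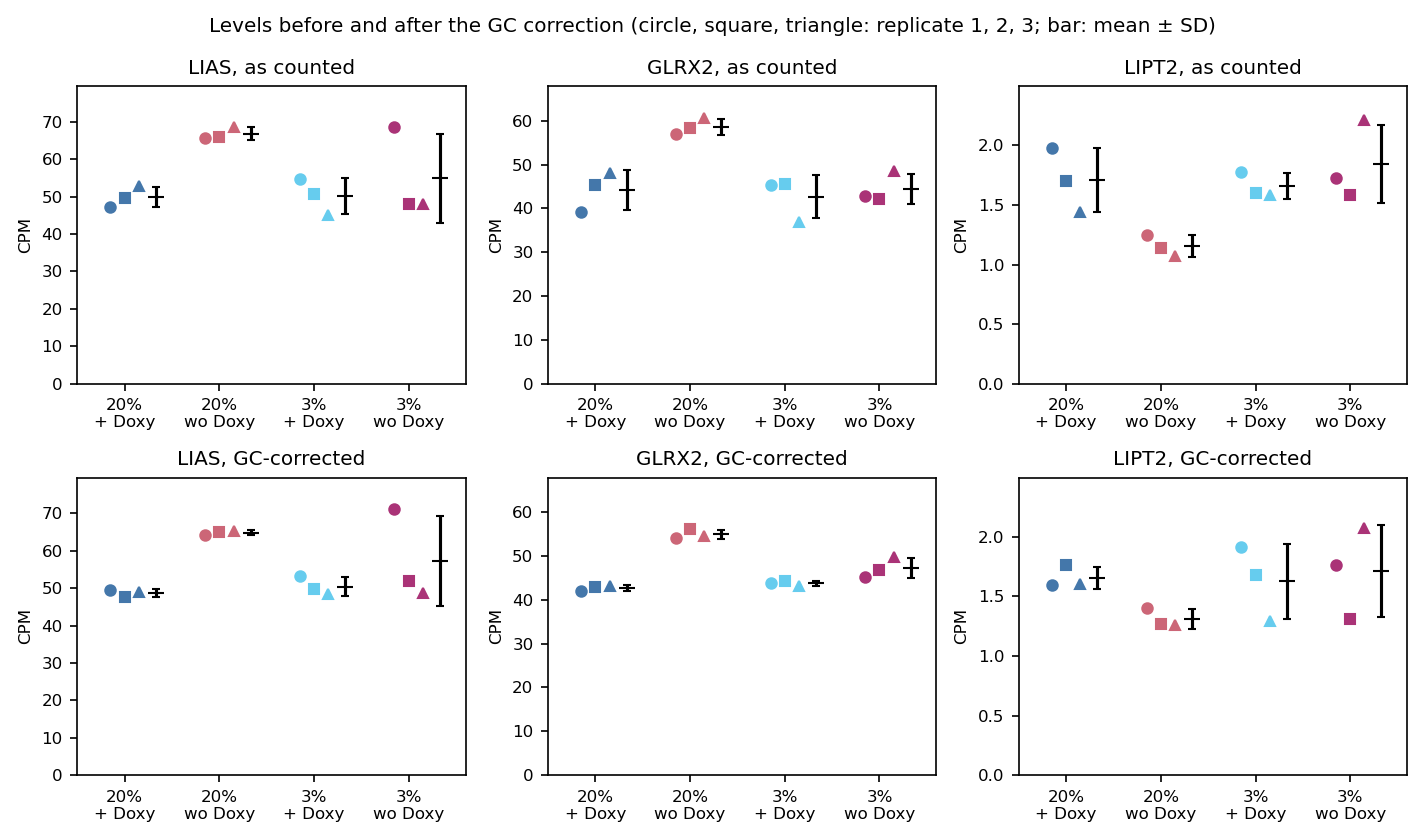
Level of LIAS, GLRX2 and LIPT2 in CPM (vertical axis, starting at 0) in each library, as counted (top) and after removal of the GC trend (bottom). Symbols are replicates, and bars are the mean ± SD of 3 libraries. After the correction the GLRX2 libraries with Doxy lie between 42.1 and 44.3 CPM, whereas the LIPT2 libraries at 3% O2 remain spread.

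**Figure D4:**
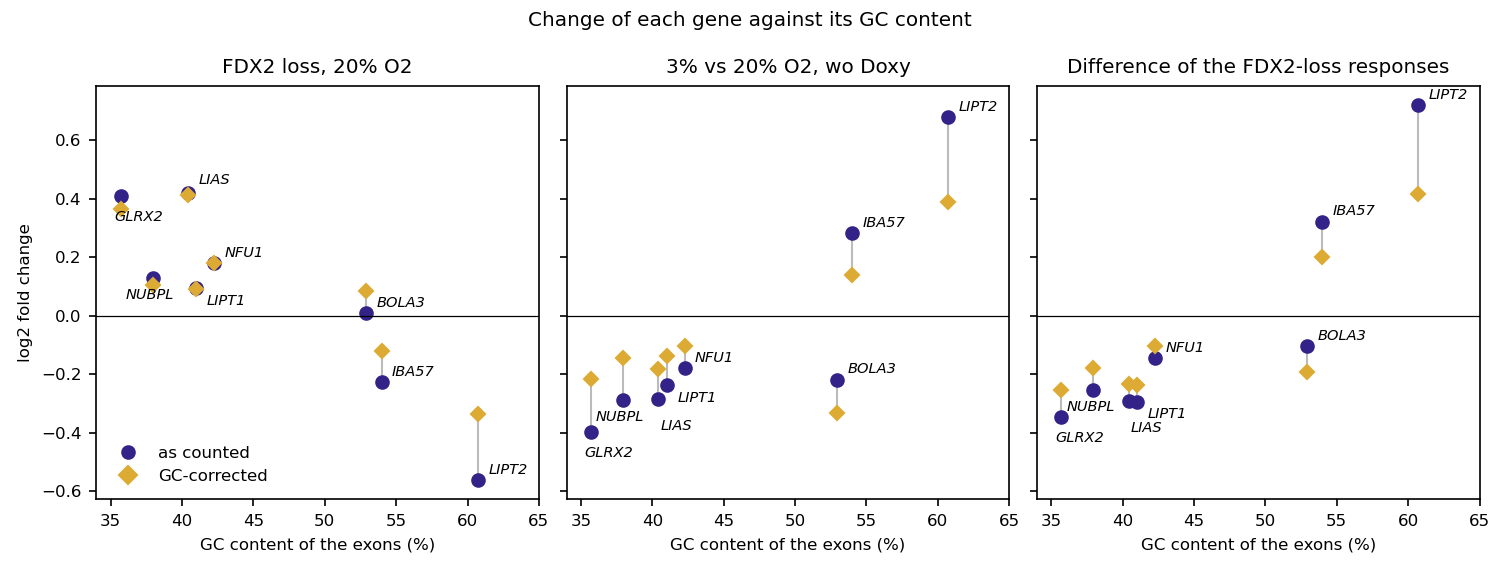
Log2 fold change of each gene (vertical axis) against the GC content of its longest annotated transcript (horizontal axis, %, labelled as that of the exons) in 3 comparisons, as counted (circles) and GC-corrected (diamonds), joined by a line for each gene. LIPT2, at 60.7% GC, moves most with the correction, while GLRX2 and LIAS on FDX2 loss at 20% O2 hardly move.

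The genes around these 8 in the pathway were taken from lists by role. Their counts of called genes are read against 35.3% of all genes called on FDX2 loss at 20% O2 and 25.8% at 3% against 20% O2 without Doxy. Calls of genes other than the 8 were examined neither after the GC correction nor with libraries left out. Among the genes named below, MCAT (60.0% GC) and OGDH (56.3%) have a high GC content, as LIPT2 does. On FDX2 loss at 20% O2, 1 core assembly gene of 15 tested rose and 2 fell: ISCU, the scaffold, rose by 0.38 log2 (adjusted p = 0.00280), and GLRX5, which hands on the cluster, and NDUFAB1, the acyl carrier protein, fell by 0.55 log2 (adjusted p = 0.000112) and 0.36 log2 (adjusted p = 0.0126). The 15 genes had a median of -0.04 log2. Mitochondrial fatty acid synthesis, which supplies the octanoyl chain, had 0 genes higher and 2 of 8 lower, NDUFAB1 again and MCAT, the malonyl transferase (-0.44 log2, adjusted p = 0.0199), with a median of -0.04 log2. Of the 5 proteins that carry lipoate, 1 gene rose (DBT, of the branched-chain dehydrogenase, 0.20 log2, adjusted p = 0.0302) and 1 fell (GCSH, the H protein on which LIPT2 and LIAS act, -0.27 log2, adjusted p = 0.0216), with a median of -0.07 log2. Their partner subunits had 0 genes higher and 2 of 6 tested lower, DHTKD1, a 2-oxoadipate dehydrogenase subunit (-0.38 log2, adjusted p = 0.00125), and PDHB, a pyruvate dehydrogenase subunit (-0.25 log2, adjusted p = 0.0110), with a median of -0.17 log2. BCKDHA, GLDC and AMT of that list had too few counts to be tested. BCKDHA and AMT share 64.6% and 63.1% of their exonic bases with other annotated genes. The part of this sharing in their low counts was not tested. Among 9 mitochondrial Fe-S proteins 0 rose and 2 fell, UQCRFS1, the Rieske protein of complex III (-0.48 log2, adjusted p = 4.82e-05), and NDUFS1 of complex I (-0.14 log2, adjusted p = 0.0368), with a median of -0.08 log2.

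At 3% against 20% O2 without Doxy, a comparison that shares the libraries at 20% O2 without Doxy, GLRX5 rose by 0.51 log2 (adjusted p = 0.000463), and ISCU and LYRM4, a partner of NFS1, fell by 0.36 log2 (adjusted p = 0.00697) and 0.23 log2 (adjusted p = 0.0197), which makes 1 core assembly gene higher and 2 lower of 15. Fatty acid synthesis had 0 of 8 called. DBT fell by 0.31 log2 (adjusted p = 0.00453), the 1 called of 5 lipoate carriers, while OGDH, the 2-oxoglutarate dehydrogenase, and DHTKD1 rose by 0.46 log2 (adjusted p = 0.00475) and 0.32 log2 (adjusted p = 0.00630), 2 of 6 partner subunits. UQCRFS1 rose by 0.23 log2 (adjusted p = 0.00915) and SDHB of complex II fell by 0.27 log2 (adjusted p = 0.00618), 2 of 9 clients. At 3% against 20% O2 with Doxy, 0 were called, beside 2.02% of all genes. In the interaction GLRX5 (0.52 log2, adjusted p = 0.00878), DHTKD1 (0.46 log2, adjusted p = 0.0159) and UQCRFS1 (0.33 log2, adjusted p = 0.0220) were called, beside 7.29% of all genes.

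Relatives of GLRX2, BOLA3 and NUBPL were counted as well, to be read against the same shares of all genes called, 35.3% on FDX2 loss at 20% O2 and 25.8% at 3% against 20% O2 without Doxy. Of 10 tested glutaredoxins, thioredoxins, their reductases and BolA proteins, 1 rose and 2 fell on FDX2 loss at 20% O2: TXNRD1, the cytosolic thioredoxin reductase, rose by 0.20 log2 (adjusted p = 0.00998), and GLRX5 and the cytosolic GLRX3 fell, the latter by 0.26 log2 (adjusted p = 0.00568). At 3% against 20% O2 without Doxy 3 rose and 2 fell. TXNRD1 fell by 0.66 log2 there (adjusted p = 1.3e-05), and with Doxy by 0.44 log2 (adjusted p = 0.000671), the 1 called gene of these lists in that comparison. NUBP1, a cytosolic relative of NUBPL, fell by 0.23 log2 on FDX2 loss at 20% O2 (adjusted p = 0.0356) and rose by 0.25 log2 at 3% against 20% O2 without Doxy (adjusted p = 0.0373), with 36.1% of its exonic bases shared with other genes.

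**Figure D5:**
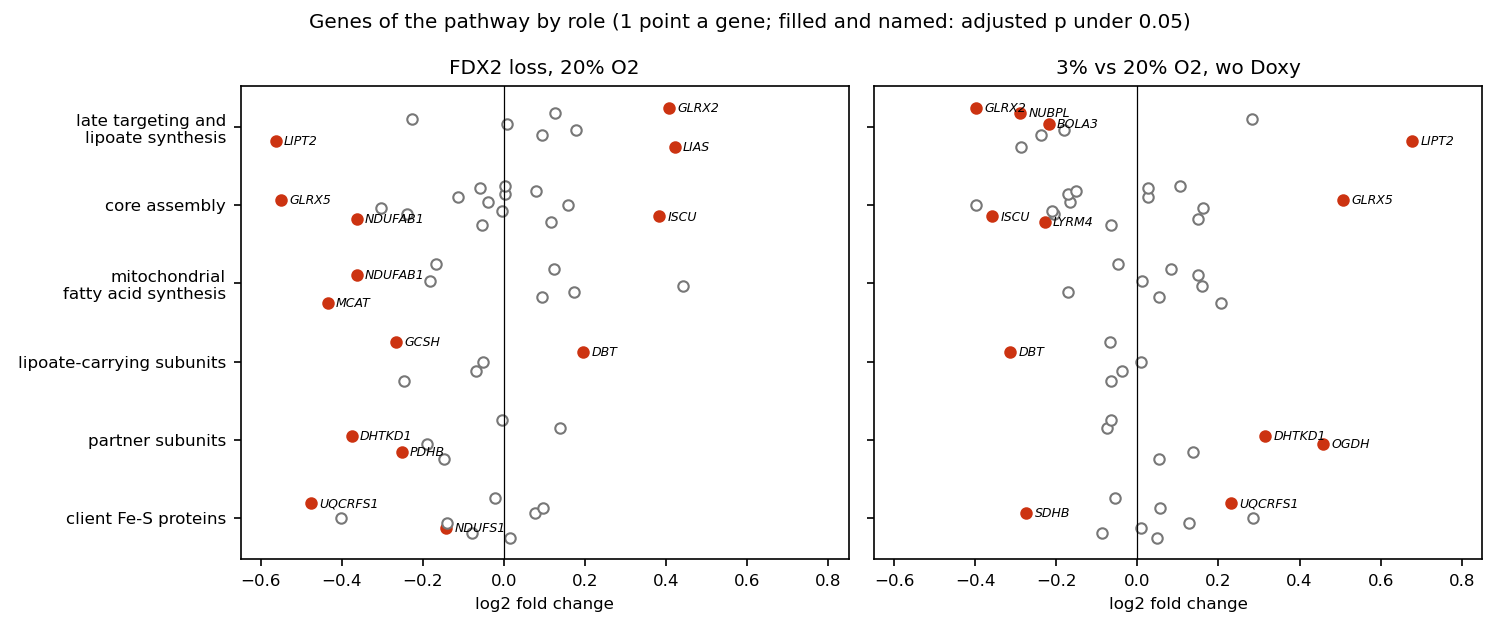
Log2 fold change (horizontal axis) of each tested gene of the pathway, by role, on FDX2 loss at 20% O2 (left) and at 3% against 20% O2 without Doxy (right). Filled, named points have an adjusted p under 0.05. LIAS and GLRX2 lie with ISCU and DBT to the right at 20% O2, and LIPT2 with GLRX5 and the other fallen genes to the left.

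Several of these genes share exonic bases or a start region with a neighbour, and whether the counting used strand is not given in the sources used here. LIPT2 shares 31.0% of its exonic bases with the antisense LIPT2-AS1, which did not pass the test on FDX2 loss at 20% O2 (0.10 log2, adjusted p = 0.612), and starts 118 bases from POLD3, a DNA polymerase subunit on the other strand, which fell by 0.22 log2 (adjusted p = 0.00600). LIPT1 shares 19.8% of its exonic bases, in part with MITD1 on the other strand. MITD1 rose by 0.52 log2 on FDX2 loss at 20% O2 (adjusted p = 0.00170) and fell by 0.35 log2 at 3% against 20% O2 without Doxy (adjusted p = 0.0217), and TSGA10, 9 bases from the LIPT1 start, rose by 0.42 log2 (adjusted p = 0.00604) and fell by 0.39 log2 (adjusted p = 0.0146). LIPT1 itself was not called in either comparison. GLRX2 shares 7.75% of its exonic bases with RO60 on the other strand, which gave 0.28 log2 on FDX2 loss at 20% O2 (adjusted p = 0.0893) and fell by 0.47 log2 at 3% against 20% O2 without Doxy (adjusted p = 0.0156). LIAS shares 3.09% with the ribosomal protein gene RPL9, which gave 0.16 log2 (adjusted p = 0.0698) and fell by 0.31 log2 (adjusted p = 0.00412) in the same comparisons. NFU1, BOLA3, IBA57 and NUBPL share no exonic base with another gene. On the other strand, BOLA3-DT starts 15 bases from BOLA3 and had 22 to 41 counts per library. IBA57-DT, likewise on the other strand, starts 303 bases from IBA57 and had 2 to 7 counts, too few to be tested. The part of neighbouring reads in these changes was not tested.

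Over the 12 libraries, as a description, LIAS and IBA57 had the most opposed log2 levels of any pair of the 8 genes (r = -0.86), and GLRX2 and NFU1 the most alike (r = 0.84). Over the 10765 genes whose mean level reached 5 CPM, the pattern most like that of GLRX2 was that of CLIC4 (r = 0.99) and then ORMDL1 (r = 0.99). For LIAS it was TMEM39A and ENTPD5 (r = 0.96 and 0.95), for LIPT2 NUAK1 (0.95) and EIF4A1 (0.91), and for NUBPL LATS1 (0.97) and VEZF1 (0.96). BOLA3 was most like TGDS (0.95) and CGRRF1 (0.94), IBA57 like NPEPL1 (0.93) and SAP30L (0.92), NFU1 like CCDC152 and LLPH (both 0.92), and LIPT1 like MBIP (0.87) and HTATIP2 (0.85). All genes compared share the libraries, their depth and their GC trend.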

How the data were processed

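Total RNA of FDX2-iKO ES2 cells was poly(A)-selected and sequenced by the authors as paired reads on a DNBSEQ-T7 instrument. The submitters' processing notes name STAR, featureCounts, DESeq2 and GRCh38. The authors deposited raw counts per gene, without normalization. Ensembl identifiers were matched to GENCODE 29, and symbols to current names. The members, gene lists and tests were chosen with earlier results of these data known. The genes named are all 8 members in every comparison and, from each list, at most 4 called genes of the largest change in a comparison.

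Counts were tested with edgeR 4.0.16 in R 4.3.3 (filterByExpr with a minimum count of 10 and total of 15, TMM, 4 condition means over 12 libraries, quasi-likelihood F test), with Benjamini-Hochberg adjustment over 16891 genes and calls at 0.05. CPM use TMM-adjusted library sizes, and correlations use log2 CPM with a prior count of 2. Replicates are described as biological replicates, with no culture named, so p-values measure the spread between these libraries. Intervals are at 95%. The trend with the GC content of the longest transcript was removed from each library by a lowess fit (span 0.3) as offsets. Replicate numbers were taken as pairing only for 20% and 3% O2 without Doxy, where same-numbered libraries deviated together (correlations of 0.19 to 0.50, against -0.47 to 0.23 for other numbers). These ranges overlap and the labels name no pairing, so the pairing is an assumption. Blocking the replicate in those 6 libraries ended the LIPT2 call and left the calls of GLRX2, NUBPL and BOLA3. Alternatives were other size factors, other filters, DESeq2 1.42.0, only the conditions compared, a replicate block, left-out libraries and a threshold of 0.01. Scripts were tested on simulated data. No protein sequence was used here, and some list genes are not reported here.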

Additional observations from a re-analysis of the deposited data

How the results depend on the processing

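With 3 libraries a condition and small changes, most calls depended on single choices. On FDX2 loss at 20% O2 the main count of 3 called genes of the 8 stood beside 5961 of 16891 genes. It became 1 at a threshold of 0.01, beside 3645. As each library was left out it ranged from 0 to 4, with 4444 of all genes called where it was 0. Leaving out 20% O2 with Doxy replicates 1 and 2 together left 1 library in that condition. LIAS, GLRX2 and LIPT2 then gave 0.31, 0.25 and -0.35 log2. At 3% against 20% O2 without Doxy the count of 4, beside 4360 of 16891 genes, became 0 at a threshold of 0.01, beside 1975. With no filter on low counts it became 1, beside 3402 of 32966 genes. With the GC correction and the replicate block it became 2, beside 5142 of 16891 over 12 libraries and 4495 of 16357 over 6. It ranged from 0 to 5 as each library was left out, with 2359 of all genes called where it was 0. The interaction had 0 called genes of the 8, beside 1231 of 16891 genes. It had 1 after the GC correction without or with the block, beside 3093 and 2622. As each library was left out it had 0 to 2, with 1139 of all genes called where it had 2. FDX2 loss at 3% O2 and 3% against 20% O2 with Doxy stayed at 0 under every alternative run. Of 22 alternatives, GLRX2 kept its call on FDX2 loss at 20% O2 under 20, LIAS under 15 and LIPT2 under 10, all with the same direction. Of 24 at 3% against 20% O2 without Doxy, GLRX2 kept its call under 21 and LIPT2, NUBPL and BOLA3 under 15 each. These alternatives include leaving out libraries that are not in the comparison, which bear on its calls only through the shared spread and scaling. No call was lost under those, so the counts of kept calls overstate how firm the calls are. With the replicate block over 12 libraries LIPT2 lost its call on FDX2 loss at 20% O2 (adjusted p = 0.0584) and BOLA3 its call at 3% against 20% O2 without Doxy (0.0761). With the block in the 6 libraries of the latter comparison LIPT2 lost its call there. Without the GC correction the block changed no other call. In the other pairs of conditions, same-numbered libraries did not all deviate together.

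Differences near 0 changed sign. On FDX2 loss at 20% O2 BOLA3 became -0.00330 log2 with DESeq2 size factors, -0.0309 with no filter, -0.00428 in the Wald test and -0.129 without 20% O2 with Doxy replicates 1 and 2, where NFU1 became -0.0382 and NUBPL -0.0161. With Doxy, 3% against 20% O2 gave LIAS values of -0.00242 with size factors, -0.0125 with no filter, -0.00234 in the Wald test, -0.00101 with the replicate block and -0.0944 without those replicates, where IBA57 became 0.0626 and LIPT2 0.180. The GC correction turned GLRX2 to 0.0369, NFU1 to 0.000642 and NUBPL to 0.0360 in that comparison, and with the replicate block to 0.0375, 0.00197 and 0.0365. In the interaction BOLA3 became 0.00783 and NFU1 0.0475 without those replicates. As each library was left out, BOLA3 ranged from -0.0449 to 0.0634 and LIPT1 from -0.0340 to 0.212 on FDX2 loss at 20% O2. At 3% O2 the ranges were -0.0306 to 0.112 for GLRX2, -0.0267 to 0.239 for IBA57, -0.0638 to 0.218 for LIAS and -0.0242 to 0.0951 for NFU1. For 3% against 20% O2 with Doxy they were -0.154 to 0.0407 for GLRX2, -0.0986 to 0.0226 for IBA57, -0.0607 to 0.0769 for LIAS, -0.0589 to 0.194 for LIPT1, -0.154 to 0.0565 for LIPT2, -0.150 to 0.0673 for NFU1 and -0.142 to 0.0248 for NUBPL. The cause was not tested.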
